A study of Mus musculus with 12 samples.

Results

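The cyclins, cyclin-dependent kinases (CDKs), CDK inhibitors, pocket proteins, E2F factors and other regulators of the cell cycle were followed in mouse embryonic stem (ES) cells after RNAi against *Kdm6a*, the X-linked gene of a demethylase of histone H3 lysine 27. The set was a list of 51 gene symbols, looked up in the annotation of the array. Of these, 50 had a probe set of their own, and 49 reached the minimum level (0.1 times the mean of an array, averaged over the 12 arrays) and so entered the test, among 15309 of the 19938 genes measured. *Ccnb1*, the gene of cyclin B1, had no probe set of its own, and *Cdkn2c*, a CDK inhibitor of the INK4 family, lay below the minimum level. PGK12.1 is a female ES cell line from blastocysts of a 129 female and a (129 X PGK)F1 male, and WD44 is a male line from BL6 blastocysts, so effects of sex and of strain cannot be told apart. Each experiment held 1 array of cells given a pool of *Kdm6a* siRNAs and 1 array of cells given siRNAs without a target, with 4 experiments in PGK12.1 and 2 in WD44. PGK12.1 experiments 1 and 2 were double RNAi, 100 pmol for 48 h followed by 400 pmol for 24 h, with harvest at 72 h, while experiments 3 and 4 of PGK12.1, like the 2 of WD44, were single RNAi, 100 pmol with harvest at 48 h. All cells had been kept on MEF feeders, which were depleted on gelatin before the transfection, and no other gene was targeted in any group.

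Progress through the cell cycle is driven by CDKs, each of which is active only when bound to a cyclin. Cyclins of the D type with CDK4 or CDK6 phosphorylate the pocket proteins RB1, RBL1 and RBL2, which otherwise hold E2F transcription factors and repress their target genes, and cyclin E with CDK2 carries this on into S phase. Cyclins A and B with CDK1 lead into mitosis, and the anaphase-promoting complex with its activators CDC20 and FZR1 ends it by marking cyclins for destruction. Mouse ES cells are known for a short G1 phase, high cyclin E activity and pocket proteins that are phosphorylated through most of the cycle.

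E2F sites, the CHR element and the CCAAT box are known features of promoters of cell cycle genes. The 250 bases upstream of the RefSeq start sites (GRCm38.p6) of 4 members that rose in PGK12.1 are shown first, with that of *Cdk1* for contrast, since *Cdk1* did not pass the test in either line. Capitals mark the E2F site (TTTCGCGC, TTTGGCGC, TTTCCCGC or TTTGCCGC), the CHR element (TTTGAA) and the CCAAT box (CCAAT), each searched on both strands (in the printed strand a match may read TTCAAA or ATTGG). *Ccnd2* and *Rb1* were not matched in this table. *Ccng2* lies at chr5:93267323-93267572 on the + strand, *Rbl2* at chr8:91069807-91070056 on the + strand, *E2f2* (the upstream of 2 starts) at chr4:136172024-136172273 on the + strand, *E2f8* at chr7:48881597-48881846 on the - strand and *Cdk1* at chr10:69352913-69353162 on the - strand.
Ccng2: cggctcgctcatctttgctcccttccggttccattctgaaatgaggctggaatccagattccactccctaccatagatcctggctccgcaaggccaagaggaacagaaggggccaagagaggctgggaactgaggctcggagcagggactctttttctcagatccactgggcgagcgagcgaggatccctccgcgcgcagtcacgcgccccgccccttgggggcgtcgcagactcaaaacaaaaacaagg
Rbl2: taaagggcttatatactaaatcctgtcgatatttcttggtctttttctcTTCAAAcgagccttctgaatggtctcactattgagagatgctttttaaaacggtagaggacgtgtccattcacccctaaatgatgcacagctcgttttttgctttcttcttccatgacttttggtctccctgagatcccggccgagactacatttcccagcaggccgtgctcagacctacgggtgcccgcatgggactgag
E2f2: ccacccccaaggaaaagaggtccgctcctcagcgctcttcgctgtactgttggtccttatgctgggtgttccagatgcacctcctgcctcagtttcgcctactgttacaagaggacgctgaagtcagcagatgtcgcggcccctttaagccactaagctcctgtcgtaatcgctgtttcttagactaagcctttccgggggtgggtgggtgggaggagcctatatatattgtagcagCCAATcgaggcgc
E2f8: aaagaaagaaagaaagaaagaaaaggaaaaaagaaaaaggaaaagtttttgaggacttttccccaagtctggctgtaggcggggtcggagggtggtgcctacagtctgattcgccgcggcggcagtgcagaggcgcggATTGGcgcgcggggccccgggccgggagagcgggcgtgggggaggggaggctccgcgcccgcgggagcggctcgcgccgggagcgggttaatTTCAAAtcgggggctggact
Cdk1: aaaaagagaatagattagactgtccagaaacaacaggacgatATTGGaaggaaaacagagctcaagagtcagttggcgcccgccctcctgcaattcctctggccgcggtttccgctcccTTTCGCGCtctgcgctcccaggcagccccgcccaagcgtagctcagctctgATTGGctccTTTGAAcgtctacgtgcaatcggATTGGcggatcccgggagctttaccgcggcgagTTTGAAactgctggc
*Cdk1* carried all 3 kinds of motif, *E2f8* a CCAAT box and a CHR element, *Rbl2* a CHR element and *E2f2* a CCAAT box, while *Ccng2* carried none of these letters. Of the 49 members tested, 36 had a promoter in the RefSeq table, with 40 start sites. An E2F site stood in 7 of these 40 windows (17.5%, against 1.86% of all 32851), a CHR element in 11 (27.5%, against 16.0%) and a CCAAT box in 22 (55.0%, against 33.8%). In the 7 windows of the 6 members that rose in PGK12.1 and had one, an E2F site was in 0, a CHR element in 3 and a CCAAT box in 5. These windows are too few to be set against the shares above, and *E2f2* entered with both of its starts. A match is only a match of letters, and binding was not measured on these arrays.

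*Kdm6a* itself was lower after RNAi in all 6 experiments. Its level, the linear value over the mean of the array, lay between 0.691 and 1.57 after *Kdm6a* RNAi against 1.81 to 3.05 in the controls of PGK12.1, and in WD44 was 1.13 and 1.15 after *Kdm6a* RNAi against 2.14 and 2.17 in the controls. The mean log2 change was -1.29 in PGK12.1 (adjusted p = 0.000293 from limma) and -0.93 in WD44 (adjusted p = 0.13, unadjusted p = 8.47e-06). The median log2 value of an array ranged between 6.15 and 8.21, and hardly differed inside an experiment, so changes were taken there. The 9 ES cell markers all reached the minimum level, with summed levels of 68.2 to 95.4 after *Kdm6a* RNAi and 68.3 to 97.7 in the controls of PGK12.1, and of 56.6 to 58.8 after *Kdm6a* RNAi and 57.3 to 59.4 in the controls of WD44. On a log2 scale this sum was lower in all 6 experiments, by changes of -0.034 to -0.001, and *Utf1* was the 1 marker of any cell type that passed (-0.222 in PGK12.1, adjusted p = 0.0248 from limma). Of 10 fibroblast (feeder) markers, 9 were measured and 7 reached the minimum, *Lum* and *Postn* being below it. Their summed level was 1.53 to 2.36 after *Kdm6a* RNAi and 1.55 to 2.43 in the controls of PGK12.1, and 2.39 to 2.55 after *Kdm6a* RNAi and 2.19 to 2.32 in the controls of WD44. On a log2 scale the fibroblast sum was lower in all 4 PGK12.1 experiments (by changes of -0.156 to -0.019) and higher in both WD44 experiments (0.123 and 0.138). The sum of 7 trophoblast markers, of which *Krt8* and *Tfap2c* gave most, went the same ways (PGK12.1 between -0.165 and -0.05, WD44 at 0.1 and 0.127). The sums of the primitive endoderm, neuroectoderm and mesoderm markers ran both ways in PGK12.1, with changes between -0.133 and 0.191. The part of these cell type markers in the results below was not tested.

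After *Kdm6a* RNAi in PGK12.1, 8 members rose and 0 fell at an adjusted p under 0.05 (limma, adjusted over all genes). They were the D-type cyclin *Ccnd2*, the CDK inhibitor *Cdkn1b*, the pocket protein genes *Rb1* and *Rbl2*, the E2F genes *E2f2* and *E2f8*, the phosphatase *Cdc25b* and the atypical cyclin *Ccng2*. Their rises lay between 1.14-fold (*Cdc25b*) and 1.53-fold (*Ccng2*). This was 16.3% of the 49 members tested, where 3.71% of all genes rose and 2.1% fell (5.81% in either direction). Since RNA of whole cultures was measured, fewer cells of a type and less RNA per cell cannot be told apart, here and below. At an unadjusted p under 0.05, 12 members were higher and 0 lower, against 13.5% and 9.18% of all genes. The count depended on the fit: it was between 3 and 5 when an experiment was left out, and 0, among all genes too, when arrays of the same experiment were not paired. The part of the arrays' scale in this last value was not tested.

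**Figure D1:**
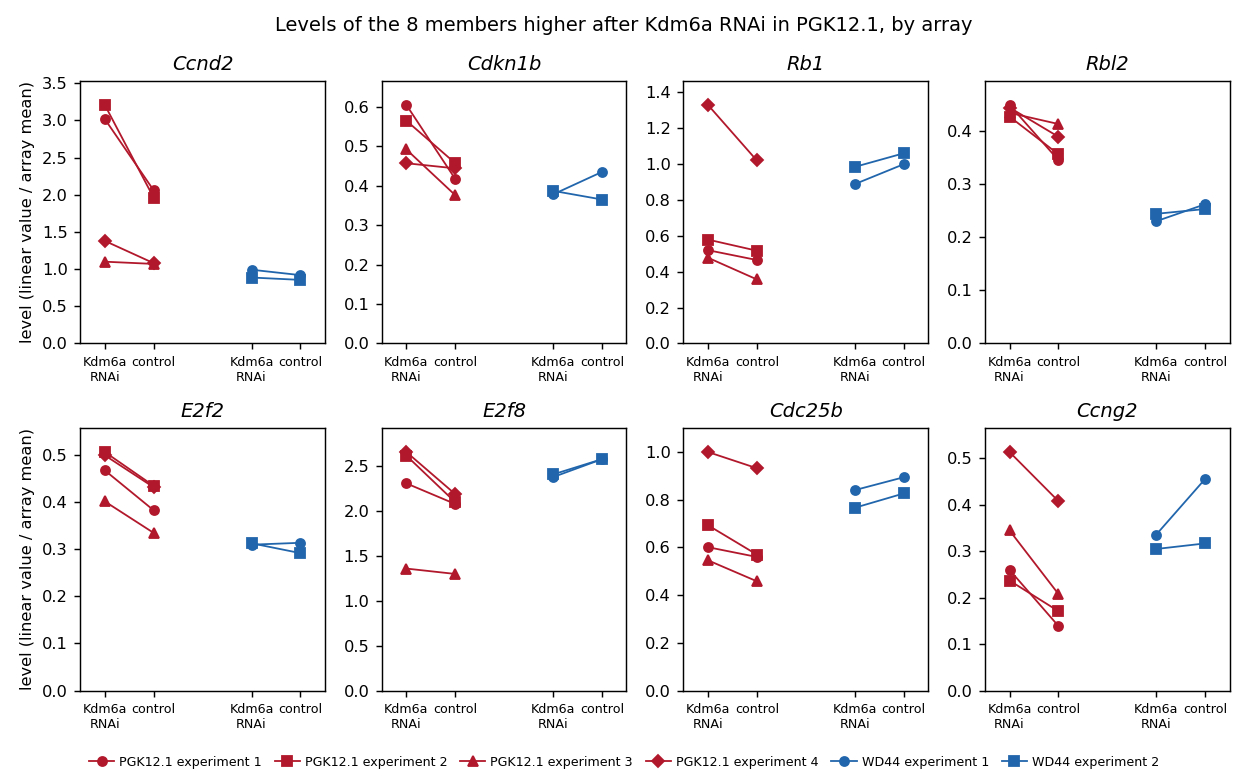
Level (linear value over array mean, linear axis starting at 0) on every array of the 8 members that rose in PGK12.1, with *Kdm6a* RNAi left of control and a line joining the arrays of 1 experiment, red for PGK12.1 (n = 4) and blue for WD44 (n = 2). Every red line is higher at its left end, while the blue lines of *Rb1*, *Rbl2*, *E2f8*, *Cdc25b* and *Ccng2* are lower there.

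*Ccng2* encodes cyclin G2, an atypical cyclin known to rise in cells that stop dividing. In PGK12.1 its level was 0.26, 0.237, 0.345 and 0.514 in experiments 1 to 4 after *Kdm6a* RNAi, against 0.139, 0.171, 0.208 and 0.408 in the controls. Within each experiment the *Kdm6a* RNAi array was higher, although the ranges of the groups overlapped, since experiment 4 stood above the others in both. The log2 change was 0.92, 0.46, 0.73 and 0.33, which averaged 0.61 (standard error 0.0948, limma, adjusted p = 0.00732). No other member had a larger mean. The levels of *Ccng2* were low, and its control of experiment 1 (0.139) lay near the minimum level of 0.1. In WD44 the level was 0.336 and 0.305 after *Kdm6a* RNAi against 0.456 and 0.317 in the controls, log2 changes of -0.46 and -0.07 that did not pass (mean -0.265, 95% confidence interval -0.565 to 0.035).

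Among the G1 cyclins and their kinases, 1 of 5 rose in PGK12.1. *Ccnd2*, the gene of cyclin D2, had a level of 3.02, 3.21, 1.1 and 1.38 in experiments 1 to 4 after *Kdm6a* RNAi, against 2.06, 1.96, 1.07 and 1.08 in the controls. Both treatments were higher in the double RNAi experiments 1 and 2, and experiment 3 was hardly apart from its control. The log2 changes were 0.57, 0.7, 0.03 and 0.36 (mean 0.415, standard error 0.0907, adjusted p = 0.0285 from limma). In WD44 the levels were 0.992 and 0.887 after *Kdm6a* RNAi against 0.919 and 0.855 in the controls, a mean log2 change of 0.065 (95% confidence interval -0.222 to 0.352). *Ccnd1*, the gene of cyclin D1, had log2 changes of 0.12, 0.12, 0.01 and 0.14 in PGK12.1 (mean 0.098, adjusted p = 0.217 from limma), and of 0.02 and -0.04 in WD44. *Ccnd3* and *Cdk4* had mean log2 changes of -0.05 and -0.048 in PGK12.1 and of 0 and 0.015 in WD44. *Cdk4*, the partner of the D cyclins, had 0, -0.06, -0.09 and -0.04 in PGK12.1 and 0.01 and 0.02 in WD44. For this gene PGK12.1 had a 95% confidence interval of -0.139 to 0.044, and WD44 one of -0.114 to 0.144.

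*Cdk6*, the other partner of the D cyclins, had levels of 1.07, 1.13, 0.546 and 0.993 after *Kdm6a* RNAi and 0.826, 0.895, 0.584 and 0.951 in the controls of PGK12.1. Its log2 change was 0.39 and 0.32 in the double RNAi experiments, beside -0.1 and 0.06 in the single RNAi experiments. Over the 4 experiments it did not pass (mean 0.168, adjusted p = 0.221 from limma). In WD44 its levels were 2.17 and 2.14 after *Kdm6a* RNAi and 2.17 and 2.06 in the controls, all above those of PGK12.1.

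Of the CDK inhibitors, 1 of the 4 tested rose in PGK12.1, and the median log2 change of the 4 was 0.021. *Cdkn1b* encodes p27, an inhibitor of cyclin E and cyclin A complexes. Its level in PGK12.1 was 0.605, 0.565, 0.492 and 0.457 in experiments 1 to 4 after *Kdm6a* RNAi, against 0.417, 0.457, 0.376 and 0.444 in the controls, so that the groups touched only at 0.457. The log2 changes were 0.555, 0.295, 0.385 and 0.04 (mean 0.319, standard error 0.0791, adjusted p = 0.0465 from limma), and the value of experiment 4 was near 0. In WD44 the log2 changes were -0.22 and 0.075 (mean -0.072, 95% confidence interval -0.323 to 0.178). *Cdkn1b* has 2 probe sets, which disagreed in part. The brighter one (mean level 1.04) had log2 changes of 0.37, 0.22, 0.31 and 0.1 in PGK12.1 and 0.03 and 0.12 in WD44 (adjusted p = 0.0271 in PGK12.1 when tested by itself with limma). The dimmer one (0.209) had 0.74, 0.37, 0.46 and -0.02 in PGK12.1 and -0.47 and 0.03 in WD44 (adjusted p = 0.0801). The brighter probe set was thus higher in all 6 experiments, with small values in WD44.

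The INK4 inhibitors, which block CDK4 and CDK6, did not pass in either line. *Cdkn2a* had log2 changes of -0.03, 0.19, -0.03 and -0.1 in PGK12.1 and 0.06 and 0.08 in WD44. *Cdkn2b* had -0.12, 0.14, 0.13 and -0.01 in PGK12.1 and 0.02 and 0.15 in WD44, and *Cdkn2d* had -0.21, 0.08, -0.14 and -0.05, and -0.09 and 0.04. All of these were low, with levels between 0.23 and 0.512 on the 12 arrays. *Cdkn2c* stood at a mean level of 0.103 after *Kdm6a* RNAi and 0.0901 in the controls of PGK12.1, and of 0.0755 after *Kdm6a* RNAi and 0.08 in the controls of WD44, and was not tested.

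The pocket proteins and E2F factors were the group with most rises: 4 of 11 rose in PGK12.1, 10 of 11 had a mean log2 change above 0, and the median was 0.098, beside 0.008 over all genes. *Rb1*, the retinoblastoma gene, had a level of 0.52, 0.579, 0.478 and 1.33 in experiments 1 to 4 after *Kdm6a* RNAi, against 0.465, 0.517, 0.357 and 1.02 in the controls. Experiment 4 stood well above the others in both treatments, and the difference lay within each experiment. Log2 changes were 0.18 and 0.15 in experiments 1 and 2 (double RNAi), and 0.42 and 0.38 in the single RNAi pair (mean 0.282, standard error 0.0554, adjusted p = 0.019 from limma). In WD44 *Rb1* was 0.888 and 0.984 after *Kdm6a* RNAi against 0.999 and 1.06 in the controls, log2 changes of -0.19 and -0.12 (adjusted p = 0.364). The groups of WD44 did not overlap, but with 2 arrays each.

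*Rbl2* encodes the pocket protein p130, which with E2F4 represses cell cycle genes in resting cells. Its levels in PGK12.1 were 0.449, 0.427, 0.434 and 0.444 after *Kdm6a* RNAi and 0.345, 0.356, 0.413 and 0.389 in the controls, groups that did not overlap. The log2 changes were 0.4, 0.25, 0.07 and 0.19 (mean 0.228, standard error 0.0575, adjusted p = 0.0495 from limma), just inside the threshold. In WD44 the levels were 0.23 and 0.244 after *Kdm6a* RNAi and 0.262 and 0.253 in the controls, with log2 changes of -0.21 and -0.06. *Rbl1*, the gene of p107, had log2 changes of 0.02, 0.2, 0.09 and -0.01 in PGK12.1 and -0.03 and -0.09 in WD44, and did not pass.

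*E2f2*, an activating E2F, had the most even change of the 8. Its level was 0.468, 0.507, 0.402 and 0.5 in experiments 1 to 4 after *Kdm6a* RNAi, against 0.383, 0.435, 0.335 and 0.432 in the controls. The log2 changes of 0.31, 0.21, 0.26 and 0.21 (mean 0.248, standard error 0.0441, adjusted p = 0.0125 from limma) lay close together. In WD44 the levels were 0.31 and 0.313 after *Kdm6a* RNAi and 0.314 and 0.292 in the controls, changes of -0.04 and 0.09. *E2f8*, an atypical E2F that represses E2F target genes, had levels of 2.31, 2.62, 1.36 and 2.66 after *Kdm6a* RNAi and 2.08, 2.1, 1.3 and 2.19 in the controls of PGK12.1. Experiment 3 was low in both treatments. The log2 changes were 0.17, 0.31, 0.06 and 0.28 (mean 0.205, standard error 0.0507, adjusted p = 0.0458 from limma). In WD44 they were -0.14 and -0.11 (levels of 2.38 and 2.41 after *Kdm6a* RNAi against 2.58 in both controls).

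The other E2F genes, among them the activating *E2f1* and *E2f3*, did not pass in PGK12.1. *E2f1* had log2 changes of 0.34, 0.06, 0.01 and 0.1 (mean 0.128, adjusted p = 0.219 from limma), most of it in experiment 1, and -0.12 and -0.11 in WD44. *E2f3* had a mean of -0.038 in PGK12.1 and -0.022 in WD44. *E2f7*, the close relative of *E2f8*, had 0.06, 0.05, 0.15 and 0.13 in PGK12.1 (mean 0.098, adjusted p = 0.221) and 0.09 and -0.02 in WD44. Of the other E2F genes known as repressors, *E2f4* had means of 0.002 in PGK12.1 and -0.035 in WD44. *E2f5* had means of 0.08 and 0.07, with 0.09, 0.09, 0.01 and 0.13 in PGK12.1 and 0.06 and 0.08 in WD44. *E2f6*, which represses without pocket proteins, had 0.11, 0.01, -0.02 and 0.09 in PGK12.1 and 0.17 in both WD44 experiments. It was the 1 member higher in WD44 at an unadjusted p under 0.05 (adjusted p = 0.238 from limma), where 8.84% of all genes were.

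At the entry into S phase, 0 of 4 members passed in PGK12.1, and the median log2 change was -0.009. *Ccne2*, the gene of cyclin E2, had log2 changes of 0.34, 0.16, 0.03 and 0.14 in PGK12.1 (mean 0.168, adjusted p = 0.103 with limma, 95% confidence interval 0.046 to 0.289), and -0.02 and -0.11 in WD44. It passed in PGK12.1 with limma's trend and robust options (adjusted p = 0.0496). *Ccne1*, the gene of cyclin E1, had 0.03, 0.07, -0.04 and 0.04 in PGK12.1, with a confidence interval of -0.069 to 0.119, and 0.02 and 0.08 in WD44. *Cdk2*, the kinase of both, had means of -0.042 in PGK12.1 and -0.045 in WD44. *Cdc25a*, the phosphatase that activates CDK2, had log2 changes of -0.12, -0.19, -0.04 and 0.07 in PGK12.1 (mean -0.07, adjusted p = 0.453) and 0.01 and -0.03 in WD44.

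Of the 11 regulators of the passage from S phase through G2 into mitosis, *Cdc25b* rose in PGK12.1, and the median log2 change was 0.025. *Cdc25b* encodes a phosphatase that activates CDK1 early in the entry into mitosis. Its levels were 0.601, 0.693, 0.546 and 1 in experiments 1 to 4 after *Kdm6a* RNAi and 0.56, 0.57, 0.458 and 0.932 in the controls, with experiment 4 highest in both treatments. The log2 changes were 0.12, 0.27, 0.25 and 0.1 (mean 0.185, standard error 0.0463, adjusted p = 0.0478 from limma). In WD44 they were -0.11 and -0.12 (levels of 0.84 and 0.766 after *Kdm6a* RNAi against 0.894 and 0.826 in the controls). *Cdc25c*, its relative, had means of 0.048 in PGK12.1 and -0.07 in WD44.

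*Cdk1* itself had levels of 2.47, 2.15, 3.07 and 5.9 after *Kdm6a* RNAi and 2.3, 2.5, 3.39 and 5.69 in the controls of PGK12.1. Its log2 changes of 0.12, -0.23, -0.15 and 0.05 ran both ways (mean -0.052, 95% confidence interval -0.188 to 0.083), and those of WD44 were 0.08 and 0.06. Its partner *Ccna2*, the gene of cyclin A2, was the 1 member lower in all 4 PGK12.1 experiments, by small changes of -0.06, -0.03, -0.06 and -0.01, and it was lower in both WD44 experiments as well (-0.03 and -0.09). These did not pass (adjusted p = 0.605 in PGK12.1 and 0.644 in WD44 from limma). *Ccnb2*, the gene of cyclin B2, had 0.27, 0.13, 0.05 and 0 in PGK12.1 (mean 0.112, adjusted p = 0.231) and 0.04 and 0.07 in WD44. *Ccna1*, a cyclin A best known from the germ line, was low (levels of 0.135 to 0.332 after *Kdm6a* RNAi and 0.142 to 0.323 in the controls of PGK12.1), and its log2 changes were -0.11, 0.02, -0.08 and 0.04 in PGK12.1 and 0.37 and -0.13 in WD44.

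The remaining members of this group lay near 0 in PGK12.1. The means were 0.055 for *Ccnf*, the gene of a cyclin that serves as an F-box protein, -0.062 for *Wee1*, the kinase that holds CDK1 inactive, and 0.04 for the phosphatase gene *Cdkn3*. They were 0.018 for *Foxm1* and 0.025 for *Mybl2*, transcription factors of the G2 and M phase program. None of the 5 passed in either line.

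The mitotic kinases and the activators of the anaphase-promoting complex did not pass in either line. In PGK12.1 the means were 0.055 for *Plk1*, 0.062 for *Aurka*, 0.048 for *Aurkb*, -0.025 for *Cdc20* and 0.085 for *Fzr1*, with 95% confidence intervals that all lay within -0.149 to 0.182. In WD44 the means lay between -0.09 (*Cdc20*) and 0.07 (*Fzr1*). *Fzr1*, the gene of CDH1, which keeps the complex active in G1, was higher in all 6 experiments, with 0.04, 0.18, 0.06 and 0.06 in PGK12.1 (adjusted p = 0.285 from limma) and 0.09 and 0.05 in WD44. *Aurka*, the gene of Aurora kinase A, had 0.08, 0.06, 0.1 and 0.01 in PGK12.1, and 0.1 and -0.09 in WD44. *Cdc20* had 0.05, 0.11, -0.13 and -0.13 in PGK12.1, and -0.01 and -0.17 in WD44.

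Among the cyclins and kinases of the CDK-activating complex and of transcription, 0 of 6 passed. *Cdk9*, the kinase that releases paused RNA polymerase, came nearest in PGK12.1 with log2 changes of 0.2, 0.12, 0.15 and 0.09 (mean 0.14, adjusted p = 0.0822 from limma), and it was 0.11 and 0.05 in WD44. It passed in PGK12.1 with a minimum level of 0.25 (adjusted p = 0.0404) and with limma's trend and robust options (adjusted p = 0.0133). Its partners *Ccnt1* and *Ccnt2* had means of 0.022 and -0.048 in PGK12.1 and 0.01 and -0.085 in WD44. *Ccnh*, the cyclin of CDK7, had -0.12, -0.11, -0.13 and 0.01 in PGK12.1 (mean -0.088, adjusted p = 0.273) and -0.12 and -0.08 in WD44. *Cdk7*, the kinase that activates other CDKs, had 0.05, 0.005, 0.055 and 0.06 in PGK12.1 and -0.14 and -0.23 in WD44. It was the 1 member lower in WD44 at an unadjusted p under 0.05 (adjusted p = 0.206 from limma), where 7.23% of all genes were. This rested on 1 of its 2 probe sets: the dimmer (mean level 0.234) had -0.14 and -0.56 in WD44, and the brighter (1.61) had -0.14 and 0.1. *Cdk8*, a kinase of the Mediator complex, had -0.16, -0.15, 0.08 and 0.01 in PGK12.1 and -0.02 and 0.02 in WD44. Outside these groups, *Ccni* had 0.03, 0.12, 0.085 and 0.045 in PGK12.1 and -0.055 and -0.1 in WD44. *Cdk5*, a kinase best known from neurons, had -0.04, -0.04, -0.04 and 0.01, and -0.07 and -0.18.

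**Figure D2:**
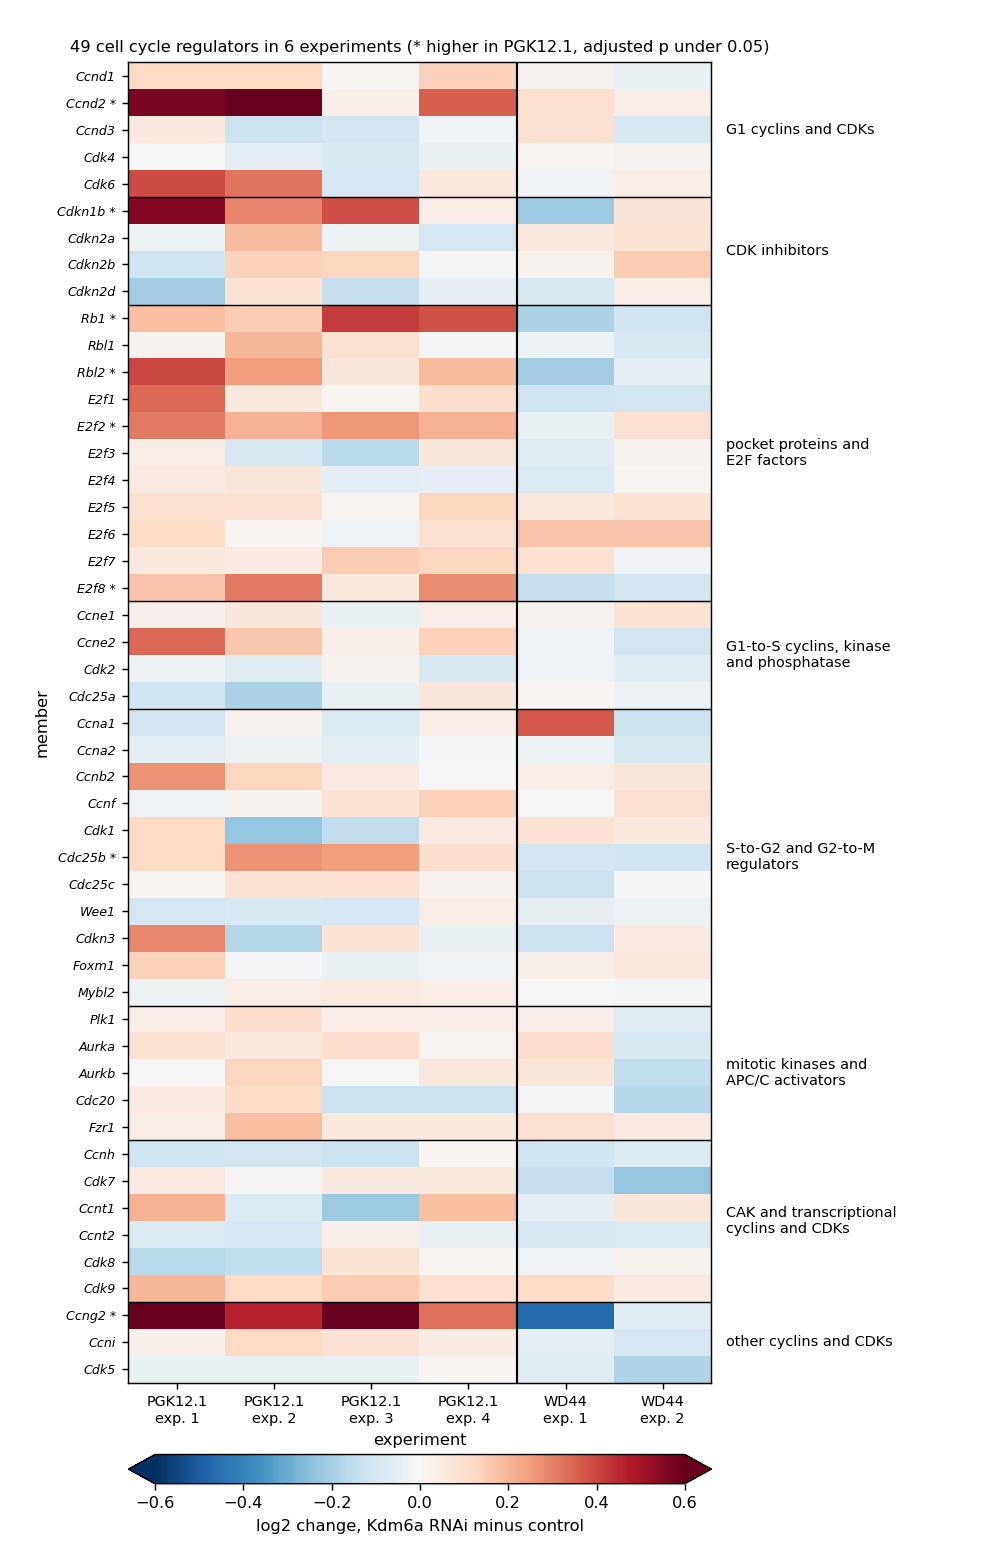
Log2 change (*Kdm6a* RNAi minus its control, colour scale from -0.6 to 0.6, values beyond drawn at its ends) of the 49 members tested, in rows ordered by role, in 4 PGK12.1 and 2 WD44 experiments, with a star on the 8 that rose in PGK12.1. Rises lie mostly with the pocket proteins, E2F factors, *Ccnd2*, *Cdkn1b* and *Ccng2*, and the mitotic kinases and activators are pale, with values between -0.13 and 0.18 in PGK12.1.

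As a whole the members leaned upward in PGK12.1. The mean log2 change was above 0 for 34 of 49 (69.4%, against 53.2% of all genes), and the median was 0.048, beside 0.008 over all genes. By experiment, the median was 0.05, 0.07, 0.03 and 0.04. Without the 8 that rose, the median of the other 41 was 0.025, and 26 of them were above 0. In all 4 PGK12.1 experiments 20 members were higher (40.8%, against 16.3% of all genes) and 1 was lower (2.04%, against 10.6%). In WD44 the median was -0.02 in both experiments and in their mean, beside -0.005 over all genes, and 19 of 49 members were above 0 (38.8%, against 47.6%). When arrays were scaled by their mean, WD44 had 24 of 49 above 0 (against 55.0% of all genes), and with quantile normalization 23 (46.9%, against 50.5%), so the count in WD44 moved with the scale. In PGK12.1 quantile normalization left 31 above 0 (63.3%, against 49% of all genes) and a median of 0.02, beside -0.002 over all genes. The lean was not particular to the members: in the lists of other cell cycle genes given below, 66.7% to 80.4% were above 0 in PGK12.1. With quantile normalization these shares were 33.3% to 70.6%.

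By role, the medians in PGK12.1 were 0.098 for the G1 cyclins and CDKs, 0.021 for the inhibitors, 0.098 for the pocket proteins and E2F factors and -0.009 for the G1-to-S group. They were 0.025 for the S-to-G2 and G2-to-M regulators, 0.055 for the mitotic kinases and activators, -0.012 for the CDK-activating and transcriptional group and 0.07 for the other 3. The pocket protein and E2F group had a median above 0 in each PGK12.1 experiment (0.11, 0.09, 0.06 and 0.13) and below 0 in each WD44 experiment (-0.065 and -0.02), where all genes had 0.01 and -0.02. With quantile normalization its median was 0.064 in PGK12.1, with 2 of the 11 called, and -0.008 in WD44. The medians of WD44 by role lay between -0.125 and 0.023. That of the S-to-G2 and G2-to-M regulators there was -0.005, and 0.011 with arrays scaled by their mean.

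**Figure D3:**
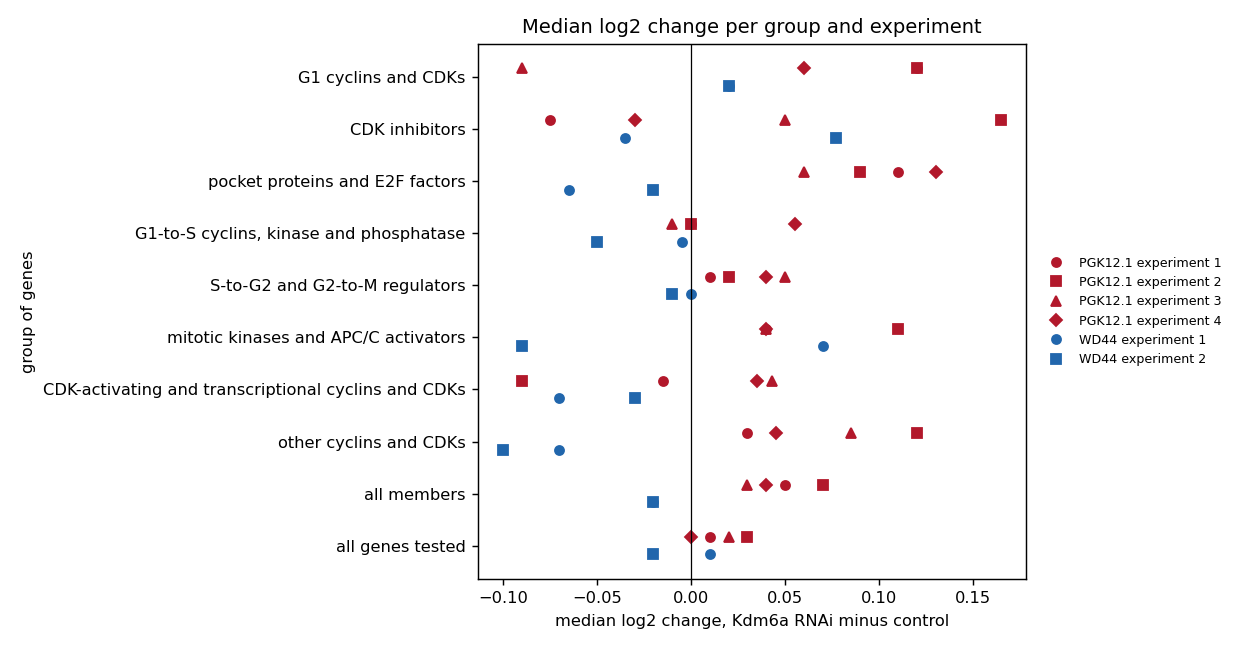
Median log2 change (*Kdm6a* RNAi minus control) over the genes of each group, each point being an experiment, in red those of PGK12.1 (n = 4) and in blue those of WD44 (n = 2), points of equal value lying on each other. The pocket proteins and E2F factors lie at 0.06 to 0.13 in PGK12.1, against -0.065 and -0.02 for WD44, and the medians of all genes tested lie between -0.02 and 0.03.

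In WD44, 0 of 49 members passed, and neither did any of the 15309 genes with limma (0.0%), *Kdm6a* included, although 1354 genes were higher and 1107 lower at an unadjusted p under 0.05. With limma's trend and robust options 12 genes passed, 0 of them members. With 2 experiments the standard errors were wider, 0.0573 to 0.134 for the members, beside 0.0405 to 0.0948 in PGK12.1. Of the 8 that rose in PGK12.1, 5 (*Rb1*, *Rbl2*, *E2f8*, *Cdc25b* and *Ccng2*) were lower in both WD44 experiments, *Cdkn1b* and *E2f2* ran both ways and *Ccnd2* was higher in both. Members that were higher in all 4 PGK12.1 and lower in both WD44 experiments numbered 10 (20.4%, against 5.96% of all genes): those 5 with *Ccne2*, *Ccni*, *Cdc25c*, *Cdk7* and *E2f1*. Counts by sign in each experiment, for members and for all genes, were taken on the deposited scale only. *Cdc25c* had -0.01 in WD44 experiment 2 and *Ccne2* -0.02 in WD44 experiment 1, so their place in this count may depend on the scale. *Cdk7* and *Ccni* count by the average of their 2 probe sets and by the dimmer set, but not by the brighter one. The same holds for them among those higher in all 4 PGK12.1 experiments. The brighter *Cdk7* set had -0.1 and -0.04 in PGK12.1 experiments 2 and 3 and 0.1 in WD44 experiment 2. The brighter *Ccni* set had -0.07 in PGK12.1 experiment 1. *Cdkn1b*, also among those higher in all 4 PGK12.1 experiments, had -0.02 in experiment 4 by its dimmer set. The reverse pattern, lower in all 4 PGK12.1 and higher in both WD44 experiments, had 0 members (against 3.36% of all genes). *Ccnd2*, *Cdk9*, *E2f5* and *Fzr1* were higher in all 6 experiments (8.16%, against 3.88%), and *Ccna2* was lower in all 6 (2.04%, against 3.93%). In WD44 by itself, 12 members were higher in both experiments (24.5%, against 31.3%) and 18 lower (36.7%, against 33.1%).

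The difference between the lines was tested itself, by subtracting the log2 change of WD44 from the one of PGK12.1. PGK12.1 here held double and single RNAi and WD44 single RNAi only, so dose and time of harvest are mixed into this difference. The scale of the arrays is mixed into it as well. The median log2 value of an array was 6.15 to 6.48 in PGK12.1 experiments 1 to 3. It was 8.03 to 8.21 in PGK12.1 experiment 4 and in WD44. The mean log2 change of *Kdm6a* was -1.29 in PGK12.1 and -0.93 in WD44. With limma, 0 of 49 members and 0 of 15309 genes (0.0%) passed. In the single RNAi experiments alone, 0 members and 0 genes passed as well. At an unadjusted p under 0.05, 10 members were more positive in PGK12.1 and 0 in WD44 (20.4%, against 11.0% of all genes, and 0.0%, against 10.0%). The smallest adjusted p was that of *Ccng2* (difference 0.875, standard error 0.164, adjusted p = 0.0853), followed by *Rb1* (0.438, standard error 0.096, adjusted p = 0.091). For *E2f8* (0.33), *Cdc25b* (0.3) and *Rbl2* (0.362) the adjusted p was 0.101 to 0.104, for *E2f2* (0.222) and *Cdkn1b* (0.391) 0.149 and 0.152, and for *Ccnd2* (0.35) 0.24. *Ccng2* and *Rb1* passed with a minimum level of 0.25 of the array mean, where 267 of 10539 genes did, and *Ccng2*, *Rb1* and *E2f8* with limma's trend and robust options, where 554 of 15309 genes did.

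**Figure D4:**
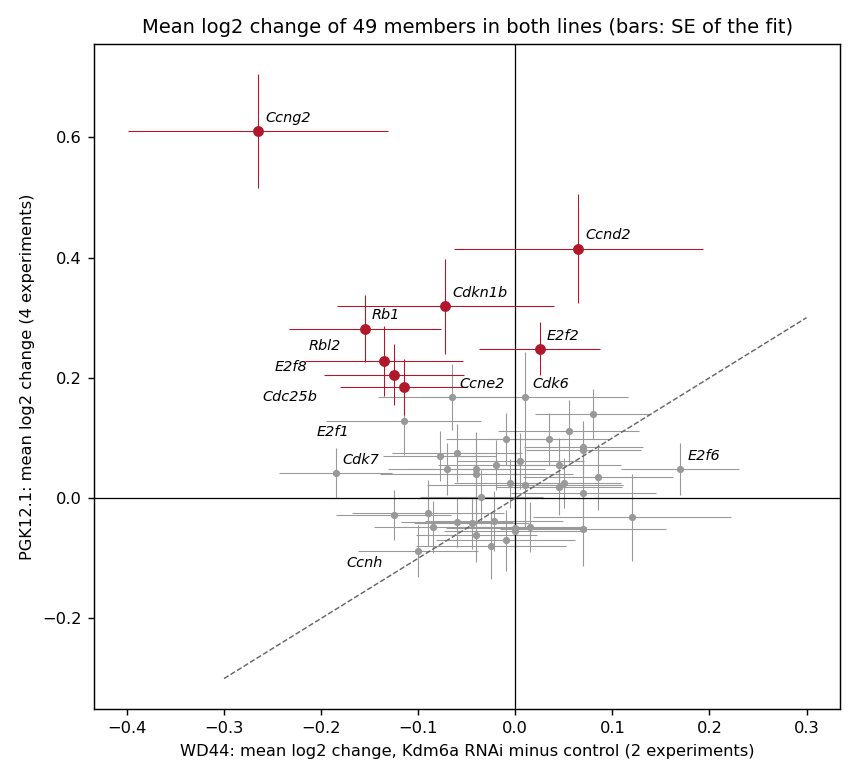
Mean log2 change (*Kdm6a* RNAi minus control) of the 49 members in PGK12.1 (vertical axis, 4 experiments) against WD44 (horizontal axis, 2 experiments), bars giving the standard error from limma, with the 8 that rose in PGK12.1 in red and equal change on the dashed line. *Ccng2* lies farthest from that line, at 0.61 in PGK12.1 and -0.265 in WD44, and most grey points lie within 0.1 of 0 on both axes.

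Double RNAi was set against single RNAi within PGK12.1, a comparison in which dose, time of harvest and set of arrays cannot be told apart. With limma, 0 of 49 members and 0 of 15309 genes (0.0%) passed. At an unadjusted p under 0.05, 3 members had the more positive change after double RNAi (6.12%, against 4.78% of all genes) and 2 the more negative one (4.08%, against 4.1%), shares near those of all genes. *Ccnd2* and *Cdk6* were the widest of the first kind, with differences of 0.44 (standard error 0.117) and 0.375 (standard error 0.0905), both at an adjusted p of 0.504. The third was *Cdc20* (0.21, adjusted p = 0.542). *Rb1* (-0.235, adjusted p = 0.514) and *Cdk8* (-0.2, adjusted p = 0.531) had the more negative change after double RNAi. The call for *Ccnd2* in PGK12.1 held in the double RNAi experiments taken alone (log2 change 0.635) and was lost in the single RNAi experiments (0.195, adjusted p = 0.339), and for *Rb1* the order was the other way (0.4 in the single RNAi experiments, and 0.165 with adjusted p = 0.17 in the double RNAi experiments).

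Control levels of the members are given for both lines without a test because the scale of the arrays changed between experiments. By the percentile of a gene among all genes of its array, 13 members were higher in all 4 PGK12.1 controls than in both WD44 controls (26.5%, against 26.4% of all genes) and 15 were lower (30.6%, against 24.7%), shares near those of all genes. *Cdk6* was at percentiles 68.8, 70.6, 61.1 and 65.4 in PGK12.1, while WD44 had it at 85.1 and 84.1. *Ccnd2* ran the other way, at 87.5, 86.5, 75.6 and 68.9 in PGK12.1 and 64.2 and 62.4 in WD44. *Rbl2* was at 44.3, 46.2, 52.6 and 40.7 in PGK12.1 and 31.5 and 29.7 in WD44, and *E2f2* at 47.6, 51.8, 47.3 and 43.7, and 36.4 and 33.9. For *Ccng2*, whose lines overlapped, the percentiles were 11.5, 22.5, 35 and 42.1 in PGK12.1 and 45.7 and 36.3 in WD44.

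Genes of the cell cycle outside the list were counted in the same fit. Of 39 other cyclins, CDKs and inhibitors, 3 rose and 0 fell in PGK12.1, where 3.71% of all genes rose and 2.1% fell. They were *Cdkn1c*, the gene of the inhibitor p57 (log2 changes of 0.34, 0.51, 0.29 and 0.22 in PGK12.1, adjusted p = 0.00697 from limma, and -0.15 in both WD44 experiments), *Cdkl2* (mean 0.205, adjusted p = 0.021) and *Ccng1*, the gene of cyclin G1 (mean 0.198, adjusted p = 0.0207). *Cdkn1a*, the gene of p21, had no probe set of its own. Of 9 E2F partners and members of the DREAM complex, 0 passed, with a median of 0.118 in PGK12.1 and -0.065 in WD44. These medians were 0.117 and -0.049 with arrays scaled by their mean, and 0.088 and -0.013 with quantile normalization. *Tfdp1* and *Tfdp2*, the dimer partners of the E2F factors, had mean log2 changes of 0.171 and 0.145 in PGK12.1 (adjusted p = 0.0817 and 0.0795 from limma) and 0.068 and -0.1 in WD44.

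Of 48 S phase genes, *Rfc4*, a subunit of the clamp loader, rose (mean log2 change 0.252, adjusted p = 0.0262 from limma) and 0 fell, where 3.71% of all genes rose, and the median was 0.022. In WD44 *Rfc4* had 0.24 and 0.11. Of 51 G2 and M phase genes, *Psrc1* rose (0.198, adjusted p = 0.0428) and 0 fell. These counts of 1 gene are not above the share of all genes that rose. In the G2 and M phase list 41 of 51 genes (80.4%, against 53.2% of all genes) had a mean above 0 in PGK12.1 and 11 of 51 (21.6%, against 47.6%) in WD44, with medians of 0.05 and -0.045. The counts were 36 in PGK12.1 with quantile normalization, and 20 and 19 in WD44 with arrays scaled by their mean and with quantile normalization. Of 12 subunits of the anaphase-promoting complex 0 passed, with a median of 0.011 in PGK12.1, and of -0.015 with quantile normalization. The smallest p-values there were those of *Anapc2* (mean log2 change 0.098, adjusted p = 0.214 from limma) and *Cdc26* (0.12, adjusted p = 0.289). In WD44 none of the genes in these lists passed.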

How the data were processed

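Total RNA of 12 samples was measured, each with 1 Mouse Gene 1.0 ST array (Affymetrix). The authors deposited log2 values, for which their methods and processing notes name RMA in Expression Console of Affymetrix. Which arrays were normalized together is not given in the sources used here. Of 35556 probe sets, 21789 had 1 gene symbol in the platform annotation, 1621 several (not named) and 12146 none, and 19919 of 19938 symbols were in the RefSeq table. Probe sets of a gene were averaged (999 genes, 4 of them members). The level of a gene is its linear value divided by the mean of the array. The 15309 genes that averaged 0.1 or more were tested, and 4629 were not.

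A linear model was fitted with limma 3.58.1 (R 4.3.3). It held a term for each experiment and an RNAi effect for either line. The spread was shared by the 12 arrays (4 residual and 5.66 prior degrees of freedom), so that WD44 borrowed it largely from PGK12.1. P-values were adjusted by Benjamini-Hochberg over all genes tested, at a threshold of 0.05. A figure legend calls the array experiments independent, and the labels do not say more of the cultures behind the 2 WD44 experiments, so part of their spread may be technical. The labels number the 2 arrays of an experiment alike. After subtraction of group means, the correlation of the paired arrays was 0.828, 0.846, 0.915 and 0.972 for PGK12.1, whose experiments differed in the scale of the arrays, and 0.265 for WD44, where both pairs have 1 value by construction. Crossed arrays of PGK12.1 experiments 1 and 2 gave 0.812 and 0.796, so these values hardly tell which of those arrays were paired. The script was tested on simulated data.

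The members, their roles, the wider lists and the markers were chosen with earlier results of these data known. Every member is named with its role. Values of every experiment are given for members called, for the 2 with the smallest p per role and line, for those with 1 sign in all 6 experiments, and for *Rb1* and *Rbl2*. *Cdk1*, *Cdk6*, *Cdk8*, *E2f1*, *E2f7* and *Rbl1* were added after their values were seen. Of the wider lists, up to 4 genes called, or else the 2 with the smallest p, are named. Motifs were searched in RefSeq promoters of GRCm38.p6. Alternatives changed the minimum level, the handling of probe sets, the variance model, the pairing, the scale of the arrays and the experiments used. Plots were made in Python 3.11.15 (matplotlib 3.10.9).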

Additional observations from a re-analysis of the deposited data

Results flagged for a closer look

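In 8 of the 49 members, 1 of the 4 PGK12.1 experiments lay far from the other 3 in its log2 change, by Dixon's criterion for 4 values. Chance gives this in about 1 of 20 groups. Of the 8 members that rose in PGK12.1, none was among them. For *Ccnd1* the value apart was 0.01 in experiment 3, where the others had 0.12 to 0.14. *Wee1* had 0.04 in experiment 4 and -0.1 to -0.09 in the others, *Ccnh* had 0.01 there beside -0.13 to -0.11, and *Cdk5* had 0.01 there beside -0.04 in each of the others. *Foxm1* had 0.14 in experiment 1 and -0.04 to -0.01 in the others, and *Mybl2* had -0.03 in experiment 1 beside 0.04 to 0.05. *Plk1* had 0.1 in experiment 2 and 0.04 in each of the others, and *Fzr1* had 0.18 there beside 0.04 to 0.06. The deposited values have steps of 0.01 on the log2 scale, so close values among the others make this criterion easy to reach.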

How the results depend on the processing

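All 8 members that rose in PGK12.1 had a log2 change above 0 under each of the 16 alternatives. For most of the alternatives this sign was fixed beforehand. Each of the 8 was higher in all 4 PGK12.1 experiments, so no choice of experiments could turn it. Several other alternatives left the log2 change itself as it was. *Ccng2* and *E2f2* passed in 13 of the 16, *Rb1* in 12, *Ccnd2* in 7, *Cdkn1b* in 5, *Rbl2* and *E2f8* in 4 and *Cdc25b* in 3. For PGK12.1, leaving out either WD44 experiment and fitting each line by itself gave the same result. These counts thus hold 1 fit more than once. The number of members called in PGK12.1 was 3 with no minimum level (*Ccng2*, *E2f2* and *Rb1*), 4 with quantile normalization (these with *Ccnd2*), 3 with each line fitted by itself, 1 in the single RNAi experiments (*Rb1*) and 1 in the double RNAi experiments (*Ccnd2*). It was 3 to 5 when an experiment was left out: 3 without PGK12.1 experiment 1, 2 or 4 or either WD44 experiment, and 5 without PGK12.1 experiment 3. Without the pairing by experiment (no replicate block) it was 0, and 0 genes of 15309 had an unadjusted p under 0.05 in that fit. It was 6 to 10 in the others. The cause of these shifts was not tested, and some of these fits also held fewer arrays.

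Over all genes, 890 passed in PGK12.1, and 452 with no minimum level, 1365 with a minimum of 0.25, 1647 with trend and robust options, 350 to 607 with an experiment left out, 537 with each line by itself, 101 in the single and 182 in the double RNAi experiments. In WD44 and for double against single RNAi, 0 members passed under every alternative run. For PGK12.1 minus WD44, 2 members passed with the minimum of 0.25 (267 of 10539 genes) and 3 with trend and robust options (554 of 15309 genes). The median log2 change of the members was 0.02 in PGK12.1 with quantile normalization and 0.065 in the double RNAi experiments, and in WD44 it was -0.004 with arrays scaled by their mean and -0.008 with quantile normalization. No member's called change reversed, which under most of the alternatives could not have happened.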
